A study of Homo sapiens with 4 samples.

Results

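The miR-106b-25 cluster consists of 3 miRNA hairpins, miR-106b, miR-93 and miR-25, that lie in an intron of MCM7, a gene for a subunit of the helicase that opens DNA for replication. Its members here are the 6 assays named hsa-miR-106b, hsa-miR-106b*, hsa-miR-93, hsa-miR-93*, hsa-miR-25 and hsa-miR-25*, chosen by name from 737 miRNA assays. The unstarred name is the guide strand and the star marks the strand from the other side of the same hairpin. All 6 gave a quantification cycle (Ct, the PCR cycle at which product is called, lower for more product) below 35 in every sample.

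The assays were read in 4 RNA samples of U2OS, an established human osteosarcoma line, by SYBR Green quantitative PCR, with 1 sample per group. The shNS sample carried a control short hairpin RNA and the shDDX1 sample a short hairpin RNA against DDX1, a DEAD-box RNA helicase. Both had been infected with lentivirus and selected with puromycin at 2 µg/ml. The other pair was untreated cells and cells given neocarzinostatin (NCS), a drug that makes double-strand breaks in DNA, for 6 h at 500 ng/ml. The study's title names processing of primary miRNAs by DDX1 as its subject. The level of DDX1 was not analysed here, so the depth of its knockdown in the shDDX1 sample is not known. The labels do not say whether the infected cells were a pool or a single clone.

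A miRNA gene is transcribed as a long primary transcript from which the nuclease Drosha cuts a hairpin, and Dicer then frees a duplex of both strands. The guide strand is usually the one kept in Argonaute, where bases 2 to 8, the seed, pair with target mRNAs. The cluster is transcribed with MCM7, which E2F and MYC drive in dividing cells, and its guides are known to repress CDKN1A and BCL2L11, genes that restrain the cell cycle and promote cell death. Its hairpins are copies of those in the clusters from miR-17 to miR-92a and from miR-106a to miR-363.

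The mature sequences of the 6 members, all matched by name in RefSeq (GRCh38.p14), are shown because the guides fall into separate seed groups while each opposite strand has a seed of its own. They lie on the minus strand of chromosome 7 within the RefSeq span of MCM7, and the 6 mature strands lie within a stretch of 493 bases, chr7:100093571-100094063. Each is written 5′ to 3′ with the seed in capitals.
miR-106b (106b-5p): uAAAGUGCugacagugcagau
miR-93 (93-5p): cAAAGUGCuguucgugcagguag
miR-25 (25-3p): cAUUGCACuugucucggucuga
miR-106b* (106b-3p): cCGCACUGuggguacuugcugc
miR-93* (93-3p): aCUGCUGAgcuagcacuucccg
miR-25* (25-5p): aGGCGGAGacuugggcaauug
miR-106b and miR-93 share the seed AAAGUGC, which 8 of 2370 RefSeq mature miRNA names carry, and miR-25 has the seed AUUGCAC, carried by 6. The seeds of miR-106b*, miR-93* and miR-25* were each found in that strand alone. The guide of miR-106b comes from the 5′ side of its hairpin and that of miR-25 from the 3′ side. The hairpins of these 2 loci show this, with both mature strands in capitals.
MIR106B, chr7:100093993-100094074, minus strand: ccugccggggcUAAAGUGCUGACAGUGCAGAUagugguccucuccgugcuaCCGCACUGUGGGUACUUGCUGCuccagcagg
MIR25, chr7:100093560-100093643, minus strand: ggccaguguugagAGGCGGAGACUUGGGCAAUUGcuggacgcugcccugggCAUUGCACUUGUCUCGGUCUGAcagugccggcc

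The plate set has 2 panels of 384 wells each, and the 3 guides sit on panel I and the 3 opposite strands on panel II. This matters for every value that follows, because the panels differed as wholes within a sample. Ratios below are log2 differences between the samples of a pair after each sample was centred on its mean Ct over miRNA wells read below 35 in all 4 samples, 25.8 and 26.1 for shNS and shDDX1, 30.1 and 29.4 for untreated cells and NCS. Under this common centring the median panel I well was at -0.42 and the median panel II well at 0.46 in shDDX1 over shNS. In NCS over untreated the medians were 0.30 on panel I and -0.84 on panel II. Each member's ratio is therefore also given with its panel centred on its own wells. Nothing was replicated, since each group is a single sample, and no test was made. From 7 assays present on both panels, the technical SD of a log2 ratio was 0.38 for shDDX1 over shNS and 0.79 for NCS over untreated. These assays are miR-103, miR-191, miR-423-5p, U6, SNORD38B, SNORD49A and the control UniSp6 CP. The miRNAs among them lie in wells H2, J2 and F2, away from the wells of the members. The NCS value rests on miR-423-5p, whose ratios on the panels differed by 2.71, and without it the SD was 0.35, and 0.32 for shDDX1 over shNS. Of the wells read as water, 6 of 9 in shNS and 7 of 9 in shDDX1 gave a Ct, and none did in the other samples.

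Among the guide strands, miR-93 was read first in every sample. It was read at Ct 19.2 in shNS and 19.3 in shDDX1, then at 22.3 in untreated cells and 21.5 after NCS. That placed it among the earliest 2.73%, 2.07%, 2.50% and 1.52% of miRNA wells below 35 in these samples. miR-25 followed at Ct 21.4, 21.9, 26.1 and 24.5, and miR-106b at 23.3, 23.7, 27.8 and 26, in the same order of samples. The order miR-93, miR-25, miR-106b held in all 4 samples, with gaps of at least 1.58 cycles against a pooled SD of 0.191 cycles between repeated calibrator wells. A Ct also depends on how well an assay amplifies, so this order is that of the readings.

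Among the opposite strands, miR-106b* was read at Ct 23.8 in shNS and 22.9 in shDDX1, and at 25.7 in untreated cells and 25.9 after NCS. miR-93* was read at 24.5, 22.3, 26.3 and 26.5 in that order. miR-25* was the latest at 26.3, 26.3, 28.4 and 28.6. The order miR-106b*, miR-93*, miR-25* held in 3 samples, and in shDDX1 miR-93* came before miR-106b*. The Ct of miR-25* was 0.25 cycles before the earliest panel II water well, P22, in shNS and 0.19 cycles before it in shDDX1. That closeness rests on 1 well. The next earliest panel II water well, H24, read 34.6 in shNS and 34.8 in shDDX1, far later than miR-25*. On panel I, water well P2 read 27.8 in shNS and 27.3 in shDDX1. Whether such background enters the value of miR-25* was not tested.

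**Figure D1:**
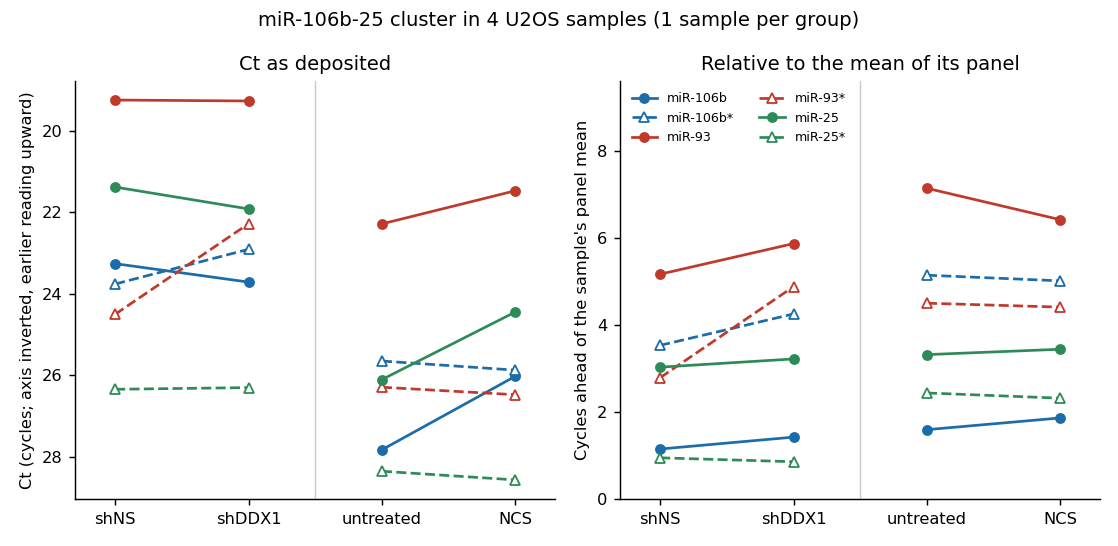
Ct as deposited (left, axis inverted) and cycles ahead of the mean of the member's panel in that sample (right) for the 6 strands in each of the 4 samples, 1 point per sample; filled circles and solid lines are guides, open triangles and dashed lines opposite strands. miR-93* moves from 24.5 to 22.3 between shNS and shDDX1, the steepest line of the knockdown pair, while the guide miR-93 stays at 19.2 and 19.3.

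After DDX1 knockdown, miR-93* was the member that stood highest, 5.76-fold above shNS, whereas its own guide miR-93 was only 1.21-fold higher. Past 2-fold, 2 of the 6 members were higher and 0 lower. Over all 716 miRNAs quantified in the pair, meaning Ct below 35 in both samples, 11.0% passed 2-fold upward and 17.3% downward. Both of the higher members are on panel II, where 19.8% of wells were higher. The median log2 ratio of the members was 0.31, against 0.04 over all miRNAs.

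The log2 ratio of miR-93* was 2.53 in shDDX1 over shNS, or 6.57 times the technical SD. It ranked 8 from the top among 353 quantified panel II wells. With panel II centred on its own wells it was 2.09, or 4.26-fold, and it was the 1 member still past 2-fold. Under that centring 7.82% of all miRNAs were higher and 15.6% lower. The 22 quantified wells within 2 rows and 2 columns of its well L13 had ratios from -0.65 to 1.52 with a median of 0.43, so no neighbouring well reached its value. Over 10 scalings, 8 of the Ct table and both tables of the authors, its ratio ran from 1.86 to 2.53 and was past 2-fold in all 10. These are not 10 separate checks. For every member in this pair, the Ct without centring and both tables of the authors gave the same ratio, 2.22 for miR-93*. The authors' deposited table gives it a fold of 4.67.

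miR-106b* was 2.23-fold higher in shDDX1, at a log2 ratio of 1.16. Centred on panel II alone it was at 0.72, or 1.65-fold, and 24 neighbouring wells had a median of 0.39. It was above 0 in all 10 scalings but past 2-fold in 2 of them. miR-25*, the last of the opposite strands, was at 0.34 under the common centring and -0.09 when centred on its panel. Its sign changed between scalings, 6 of 10 being above 0. The 3 opposite strands of this single primary transcript thus spanned 2.18 on the log2 scale, against a technical SD of 0.54 for a difference of 2 ratios.

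The 3 guides lay close together in the knockdown pair. Their log2 ratios were -0.15 for miR-106b, 0.28 for miR-93 and -0.23 for miR-25, a range of 0.51. The technical SD of a difference of ratios was 0.54, or 0.46 without miR-423-5p, so the range was about 1 SD. That SD compares wells on separate panels, whereas the guides share panel I. With panel I centred on its own wells they were 0.27, 0.70 and 0.19. Each of the 3 was below 0 in some scalings and above 0 in others. miR-93 passed 2-fold in 1 scaling, at 1.12 after subtraction of its neighbouring wells, whose median was -0.84.

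**Figure D2:**
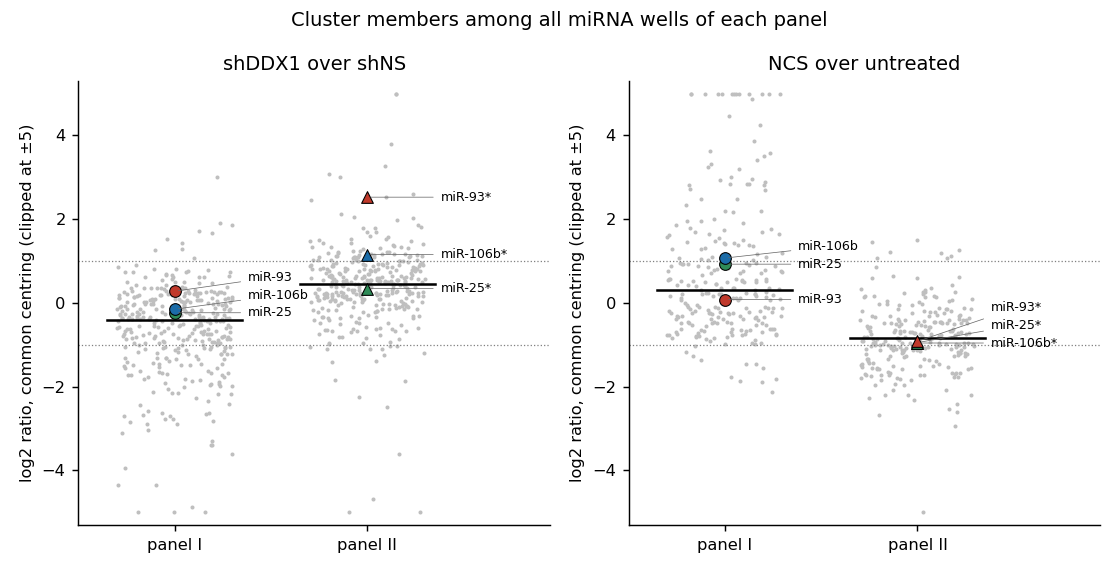
Log2 ratio of every quantified miRNA well (grey, clipped at ±5) by panel, with the median of the panel as a black line, the cluster's guides as circles and opposite strands as triangles; dotted lines mark 2-fold. In shDDX1 over shNS miR-93* stands at 2.53 above a panel II median of 0.46, and in NCS over untreated the 3 opposite strands lie at the panel II median.

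After NCS, the guides of miR-106b and miR-25 were about 2-fold above untreated cells, miR-93 was level, and the 3 opposite strands were somewhat below. miR-106b was 2.10-fold higher, at a log2 ratio of 1.07, miR-25 1.90-fold higher at 0.93, and miR-93 was at 0.08. Of the 6 members 1 was at least 2-fold higher and 0 lower, where 16.9% of 498 quantified miRNAs were higher and 22.3% lower, and 30.4% of panel I wells were higher. The members' median was -0.42, beside -0.38 over all miRNAs. A ratio of 1.07 is 1.35 times the technical SD of this pair with miR-423-5p included, 0.79, which is 0.35 without that assay.

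With each panel centred on its own wells no member reached 2-fold after NCS, where 13.7% of all miRNAs were higher and 20.5% lower. miR-106b was then at 0.27, miR-25 at 0.12 and miR-93 at -0.72. The wells around miR-106b, in O12, had a median of 1.10, and subtracting it left miR-106b at -0.028. miR-106b was past 2-fold in 8 of 10 scalings and miR-25 in 5, where both tables of the authors gave each member the same ratio and so count as 1 check. Only miR-25 was above 0 in all 10. miR-93, whose 13 neighbouring wells around J18 had a median of 1.76, was between -1.68 and 0.91 over the scalings. The authors' deposited table gives folds over untreated cells of 2.41 for miR-106b, 3.46 for miR-25 and 1.88 for miR-93, and between 0.808 and 0.919 for the opposite strands. On panel I the wells of the middle columns, 7 to 18, had a median of 1.21 after NCS and those of the outer columns -0.16. miR-106b and miR-93 lie in the middle columns and miR-25 in column 6.

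The opposite strands had nearly the same ratios in the NCS pair under the common centring. Their log2 ratios were -0.96 for miR-106b*, -0.92 for miR-93* and -0.95 for miR-25*, a range of 0.04. Their Ct changed by only 0.22, 0.18 and 0.21 cycles between untreated and NCS-treated cells, so the ratios near -0.9 come from the change in the mean Ct used for centring. Centred on panel II they were at -0.13, -0.09 and -0.12, and with neighbouring wells subtracted they were farther apart, at 0.10, 0.17 and -0.40. All 3 lay near the middle of panel II, with 44.0%, 46.8% and 45.2% of its wells lower.

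**Figure D3:**
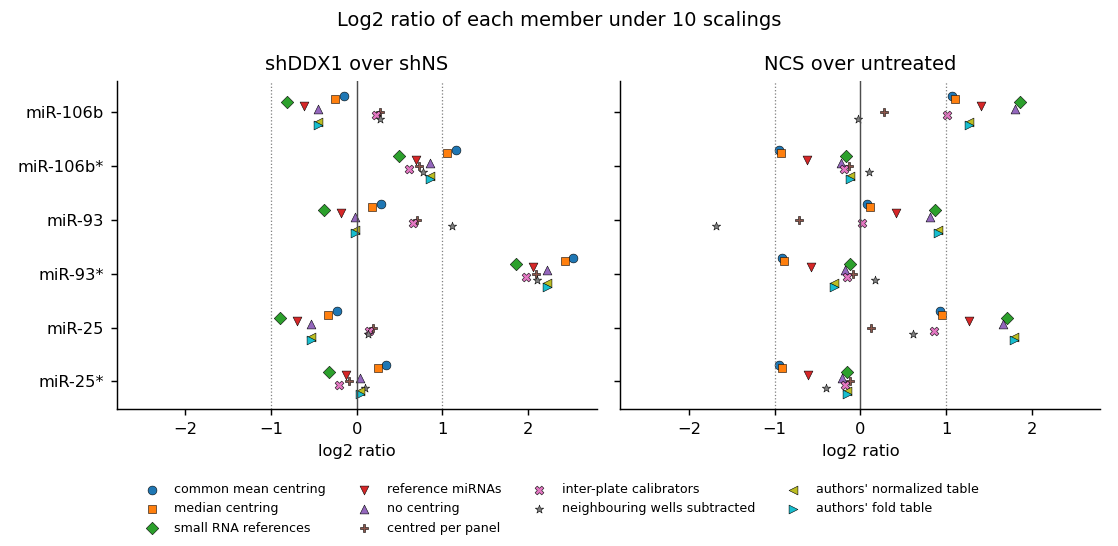
Log2 ratio of each member under 10 scalings (8 of the Ct table, 2 from the authors' tables), one marker per scaling, with dotted lines at 2-fold. In shDDX1 over shNS miR-93* lies between 1.86 and 2.53 throughout, whereas most other members cross 0 or stay within 2-fold; in NCS over untreated miR-106b runs from -0.028 to 1.86.

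A reference common to both panels shifts all miRNAs of a pair by 1 amount, whereas centring per panel, inter-plate calibrators and neighbouring wells shift wells unequally. The authors' shifted Ct of the NCS pair also moved wells of 1 panel unequally. In untreated cells the shift was -4.11 for miR-106b, -3.36 for miR-93 and -3.63 for miR-25. In both samples of the knockdown pair it was -0.79 for each guide and 0.79 for each opposite strand. Against the common centring the median of all miRNAs moved in shDDX1 by -0.67 with small RNA references, -0.46 with reference miRNAs and -0.30 without centring. After NCS it moved by 0.79, 0.33 and 0.73 with these. The share of miRNAs past 2-fold that were higher was 38.9% in shDDX1, against 8.54%, 13.2% and 19.3% with these 3 scalings and 27.4% with inter-plate calibrators. After NCS it was 43.1%, against 86.3%, 61.1% and 83.2%, 70.2% with calibrators and 56.8% after subtraction of neighbouring wells. In the authors' deposited tables it was 83.0% after NCS and 19.4% in shDDX1.

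Within a sample, the place of a strand relative to the mean of its own panel was set side by side over the 4 samples. miR-93* was ahead of the panel II mean by 2.79 cycles in shNS and 4.88 in shDDX1, and by 4.5 in untreated cells and 4.41 after NCS. The value in shNS was the lowest of the 4, and that in shDDX1 was near those in untreated and NCS-treated cells. miR-106b* was 3.53, 4.25, 5.14 and 5.01 cycles ahead, again lowest in shNS. miR-93 was 5.16, 5.87, 7.14 and 6.41 cycles ahead of the panel I mean. Of the 6 members 5 were lowest in shNS, as were 35.3% of all 499 miRNA wells read below 35 in every sample. The pairs were read at different overall Ct, 4.27 cycles apart in the controls, and share no sample, so values across pairs are set side by side without a ratio.

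**Figure D4:**
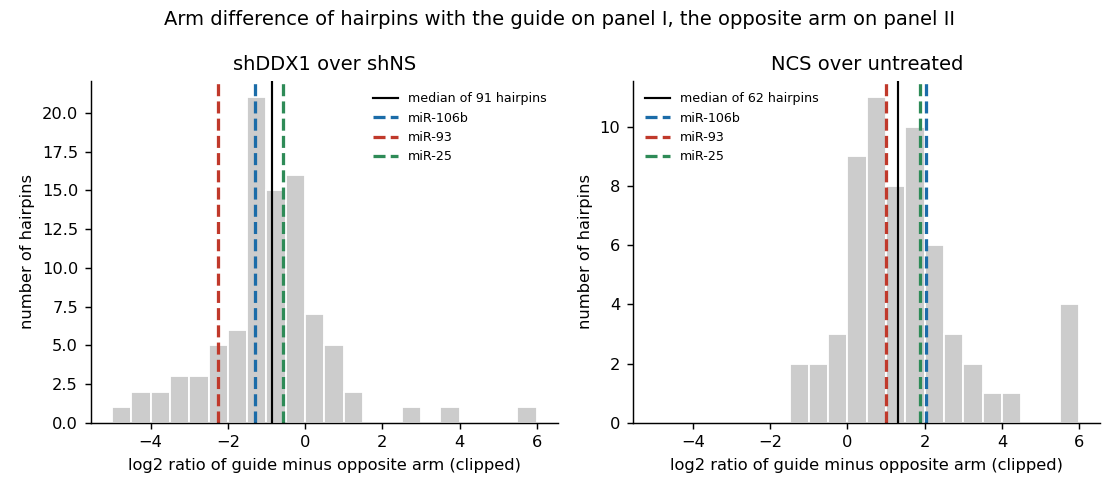
Number of hairpins by the log2 ratio of the guide minus that of the opposite strand (clipped), for hairpins with the guide on panel I and the opposite strand on panel II; the black line is their median and dashed lines are the 3 hairpins of the cluster. In shDDX1 over shNS miR-93 lies at -2.25 against a median of -0.86 over 91 hairpins, and in NCS over untreated all 3 lie between 1.0 and 2.03 around a median of 1.30 over 62.

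The strands of a hairpin come from 1 precursor, so the ratio of the guide minus that of the opposite strand leaves out changes they share. In shDDX1 over shNS this difference was -1.31 for miR-106b, -2.25 for miR-93 and -0.58 for miR-25. The strands sit on separate panels, and 91 hairpins with the same layout and both strands quantified had a median of -0.86, from -1.46 at the lower to -0.23 at the upper quartile. miR-93 ranked 14 from the lowest of the 91, below the lower quartile, and miR-106b and miR-25 lay between the quartiles. With panels centred separately the differences were -0.45, -1.39 and 0.28 around a median of -0.02. A difference of -1 or less was found in 47.3% of the 91 hairpins under the common centring and in 18.7% with panels centred separately.

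After NCS the guide minus opposite difference was 2.03 for miR-106b, 1.0 for miR-93 and 1.87 for miR-25. All 3 lay within the quartiles of 62 such hairpins, 0.48 and 2.12. With panels centred separately they were 0.40, -0.63 and 0.24 around a median of -0.33. As read, miR-106b* was 2.18 cycles ahead of miR-106b in untreated cells, 0.15 ahead in NCS-treated and 0.81 ahead in shDDX1 cells, and 0.50 behind in shNS. Relative to the mean of each strand's own panel, miR-106b* was ahead in all 4 samples, by 3.55, 3.15, 2.83 and 2.38 cycles in that order. In the other hairpins the guide was read first in all 4 samples, by 3.01 to 5.26 cycles for miR-93 and 2.25 to 4.96 for miR-25. Relative to the panel means these guides were ahead by 0.99 to 2.64 and 0.88 to 2.36 cycles. The panels hold different assays, so neither reading compares the amounts of the strands of a hairpin.

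Some of the guides with the same seeds are shown next because a shared seed lets them act on the same targets.
miR-17: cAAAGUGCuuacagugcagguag
miR-20a: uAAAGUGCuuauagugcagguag
miR-106a: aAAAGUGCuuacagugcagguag
miR-92a: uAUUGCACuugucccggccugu
miR-32: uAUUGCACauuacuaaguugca
Counted position by position from the 5′ end, miR-106b differs from miR-17, miR-20a and miR-106a at 3 of 21 positions each, and from miR-93 at 5. miR-25 differs from miR-92a at 4 of 22 positions and from miR-32 at 9. How far an assay also reads a relative was not tested.

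Of the 8 mature names with the AAAGUGC seed, 6 guides were listed for comparison. In shDDX1 over shNS none of these 6 was past 2-fold, where 11.0% of all miRNAs were higher and 17.3% lower. The median of the 6 was 0.12, or 0.55 with panel I centred on its own wells. miR-17 was at -0.15, miR-20a at -0.03, miR-20b at 0.50 and miR-106a at 0.50, beside the values of miR-106b and miR-93 above. Of the 6 guides with the AUUGCAC seed, 2 were at least 2-fold lower and 0 higher, with a median of -0.52. These were miR-363 at -1.48 and miR-32 at -1.05, of which miR-32 was within 2-fold, at -0.63, when panel I was centred on its own wells. miR-92a, miR-367 and miR-92b were at 0.11, -0.35 and -0.69, and miR-25 was among the 4 within 2-fold.

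After NCS the relatives spread more widely. All of these guides lie on panel I, where 30.4% of wells were at least 2-fold higher. Over all 498 quantified miRNAs 16.9% were higher and 22.3% lower. With each panel centred on its own wells 13.7% of all miRNAs were higher and 20.5% lower. Of the 5 listed AAAGUGC guides that were quantified, 3 were at least 2-fold higher, miR-17 at 1.47, miR-20a at 1.37 and miR-106b at 1.07. Of the same guides, miR-93 was at 0.08 and miR-106a at -0.68. Centred on panel I, 0 were higher and miR-106a was lower at -1.48. Of the 4 quantified AUUGCAC guides 2 were higher, miR-32 at 3.87 and miR-92b at 1.86, with miR-25 at 0.93 and miR-92a at -0.38. Centred on panel I, miR-32 and miR-92b stayed higher, at 3.07 and 1.05, and miR-92a was lower at -1.19. miR-17 and miR-106a, which differ at 1 of 23 positions, thus differed by more than 2 on the log2 scale. Their wells are K8, in the middle columns, and O4, in the outer ones. Of the 9 guides from both seed groups, the 6 in the middle columns ranged from 0.08 to 3.87 with 5 past 2-fold, and the 3 in the outer columns from -0.68 to 0.93 with 0. The part of plate position in these values was not tested.

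**Figure D5:**
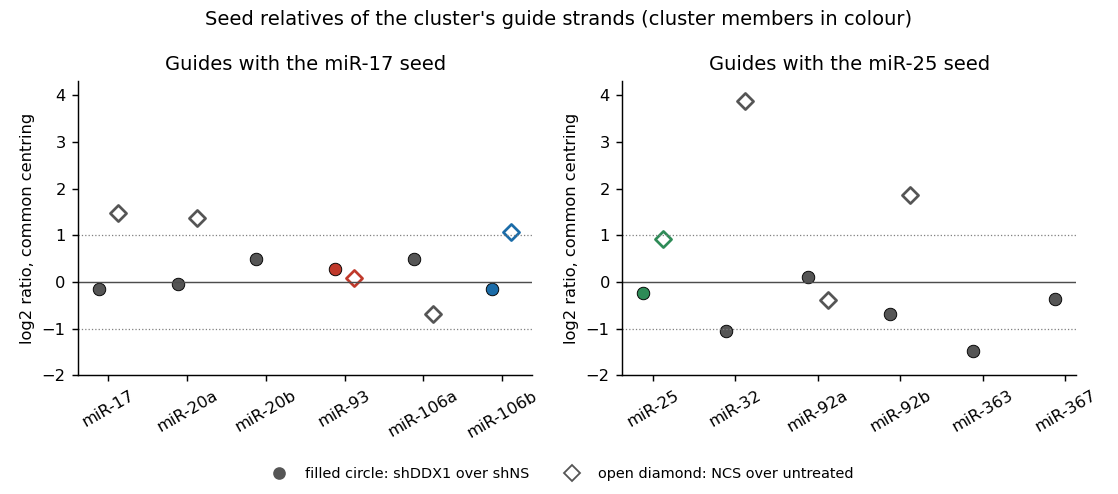
Log2 ratio of each listed guide with the seed AAAGUGC (left) or AUUGCAC (right) in shDDX1 over shNS (filled circles) and NCS over untreated (open diamonds, absent where not quantified), with the cluster's own guides in colour and dotted lines at 2-fold. The knockdown ratios lie between -1.48 and 0.50, and the NCS ratios spread from -0.68 to 3.87.

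The paralogous clusters gave a further comparison by strand. In the cluster from miR-17 to miR-92a, 11 of 12 listed strands were measured, and in shDDX1 1 was at least 2-fold higher, miR-20a* at 1.10, and 2 lower, miR-17* at -8.80 and miR-18a* at -2.84. The median was -0.15, and 11.0% of all miRNAs were higher and 17.3% lower. miR-17* rests on a Ct of 32.4 in shDDX1 against 23.3 in shNS. miR-20a* was at 0.67 when centred on panel II, and miR-19b-1* at 0.76 under the common centring, so no opposite strand of that cluster was as high as miR-93*. After NCS, 3 of its 11 strands passed 2-fold upward and 4 downward, beside 16.9% and 22.3% of all miRNAs, and the median was -0.71. With each panel centred on its own wells 1 was higher and 4 lower. Of the 10 strands of the cluster from miR-106a to miR-363, 0 were higher and 2 lower in shDDX1, miR-106a* at -2.50 and miR-363 at -1.48, with a median of -0.08. Only 3 of them were quantified in the NCS pair, where 0 were higher and 1 was lower, miR-106a* at -1.96. With each panel centred on its own wells 2 of these 3 were lower.

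By the distance between pairs of ratios (shDDX1 over shNS and NCS over untreated, 2 values from 4 samples), the miRNAs nearest to miR-106b among 495 were miR-192, miR-193a-3p and miRPlus-C1066, at 0.11, 0.13 and 0.14. Those nearest to miR-93 were miR-139-5p, miR-224* and miR-643, at 0.05, 0.08 and 0.09. Those nearest to miR-25 were miR-133a, miR-193a-3p and miR-301b, at 0.04, 0.08 and 0.09. These distances are smaller than the technical SDs, so the order among near neighbours is not resolved.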

How the data were processed

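Per the labels, Trizol was used to extract total RNA, an Exiqon kit made the cDNA, and miRNAs were read with SYBR Green on a human panel I and II miRNA plate set. The sources used here do not give the instrument or its threshold. Files deposited by the authors comprise a Ct table without normalization, a table of shifted Ct, and a table giving each sample's linear ratio (fold) over its control. The Ct table was used, and the others served as alternatives. Of 768 wells, 740 held miRNA assays, and 499 of them, read below Ct 35 in all 4 samples, set each sample's mean. The level was that mean minus the Ct, and 1 cycle was taken as 1 doubling. Wells of the same assay were averaged. Ratios were computed with Python 3.11.15, numpy 2.4.6 and pandas 2.3.3, and the code was tested on simulated plates. No p-value was computed, and the SDs cover wells, not cultures. The members, the 4 related lists and the 14 alternatives were chosen with earlier results of these data known. The rule for names took the members, the strands of the lists, the reference assays and, for each guide, the 3 nearest miRNAs by pattern, and strands not singled out stand in the counts.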

Additional observations from a re-analysis of the deposited data

Results flagged for a closer look

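Water wells, which lie outside the measurement of miRNAs, gave signal in the knockdown pair. The earliest panel II water well, P22, read Ct 26.6 in shNS and 26.5 in shDDX1, against 26.3 for miR-25* in both. The next earliest on that panel, H24, read 34.6 in shNS and 34.8 in shDDX1. On panel I, water well P2 read 27.8 in shNS and 27.3 in shDDX1. Neither P22 of panel II nor P2 of panel I gave a Ct in untreated or NCS-treated cells. No explanation was tested.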

How the results depend on the processing

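No paired analysis was possible because no group has a second sample. The count of members at least 2-fold higher in shDDX1, 2 under the common centring, was 1 with small RNAs or reference miRNAs as the reference, without centring, with centring per panel or inter-plate calibrators, in both tables of the authors and at Ct 32 or 4-fold. Their median of 0.31 was -0.35 with small RNA references and -0.15 with reference miRNAs. The count higher after NCS, 1, was 2 with either reference, without centring, in both tables of the authors, under Ct 32 and at 1.5-fold, and 0 with centring per panel, subtraction of neighbouring wells, no Ct limit and 4-fold. The count lower after NCS, 0, was 1 with neighbouring wells subtracted and under Ct 37, and 3 with no Ct limit or at 1.5-fold. The NCS median of -0.42 was 0.39 in both tables of the authors, and it was also above 0 with small RNA references (0.37), without centring (0.32) and with neighbouring wells subtracted (0.036). Among NCS values past 2-fold under the common centring, subtraction of neighbouring wells turned the sign of 3. These were miR-106b, to -0.028, its guide minus opposite difference, to -0.13, and the median of the listed AAAGUGC guides, to -0.038. Values within 2-fold changed sign as well, miR-106b* to 0.10, miR-93 to -1.68, miR-93* to 0.17 and the miR-93 strand difference to -1.85. The remaining 52 of 80 counts and medians stayed within 1.5 times or the technical SD. Of the ratios of single strands, strand differences and list medians, 190 stayed within the technical SD and 77 moved beyond it. The 190 are not separate checks. A strand difference cannot move under a reference common to both panels, and the authors' tables gave the same values as each other here. For NCS the SD used was 0.79, which is 0.35 without miR-423-5p. The cause of the moves and sign changes was not tested.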
